A study of Homo sapiens with 8 samples.

Results

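The small nucleolar RNA (snoRNA) host genes described here are 9 noncoding genes: GAS5, SNHG1, SNHG5, SNHG6, SNHG8, SNHG12, SNHG15, ZFAS1 and EPB41L4A-AS1. They were chosen by name, with earlier results of these data known, through the Ensembl identifier of each symbol. The source was the 60664 gene rows of a raw count table. Of the 9 genes, 8 had at least 1 count in some library and 7 had enough counts to be tested. SNHG5 had a single count over all libraries and EPB41L4A-AS1 had none, so neither was measured. The counts come from RNA sequencing of A549 cells, an established human lung adenocarcinoma line, in 8 libraries with 2 for each of 4 groups. Untreated cells received neither agent. The IFN-γ group received the cytokine interferon-γ at 20 ng/mL, a dose whose volume is given in the methods and not in the labels. The AX-0085 group received 0.5 µM of AX-0085, a kinase inhibitor, and the fourth group received both, with AX-0085 added after the first 24 h and kept for another 24 h. The labels name no transgene or deletion, so the groups differ only in the agents, and each was sequenced in duplicate. The sources used here do not say whether the duplicates were separate cultures, so the p-values measure the spread between these samples only.

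A snoRNA host gene is transcribed as a spliced precursor whose introns hold snoRNAs. The snoRNAs are released from the excised introns and guide chemical modification of ribosomal RNA, box C/D snoRNAs ribose methylation and box H/ACA snoRNAs pseudouridylation. The spliced exons of many hosts encode no long protein, are engaged by ribosomes and are degraded by nonsense-mediated decay (NMD), so the level of the spliced RNA can change with transcription, with translation or with decay. Several hosts, GAS5 among them, start with a run of pyrimidines, the terminal oligopyrimidine (TOP) motif that ties the translation of an mRNA to growth signals. GAS5 was first known as a gene whose RNA accumulates when cells stop growing, and its RNA can bind the glucocorticoid receptor.

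The starts of the host genes are shown because the pyrimidine run is the sequence feature by which such genes are usually recognized. Each line gives 25 bases before the annotated start and 25 bases from it, 5′ to 3′ on the strand of the gene, and capitals mark a C at the first transcribed base followed by at least 4 pyrimidines. The 7 RefSeq windows examined (GRCh38.p14) are shown first. The canonical starts of GENCODE 44 (GRCh38) follow for GAS5, where the annotations differ on the run, and for SNHG15. The start of SNHG6 was not examined, here or for the motifs below. The RefSeq windows lie at chr1:173869021-173869070 on the minus strand for GAS5, chr1:28581849-28581898 on the minus strand for SNHG12, chr20:49278617-49278666 on the plus strand for ZFAS1, chr6:85678709-85678758 on the minus strand for SNHG5, chr11:62855861-62855910 on the minus strand for SNHG1, chr4:118278737-118278786 on the plus strand for SNHG8 and chr5:112160501-112160550 on the plus strand for EPB41L4A-AS1. The GENCODE windows lie at chr1:173867965-173868014 on the minus strand for GAS5 and chr7:44986937-44986986 on the minus strand for SNHG15.
GAS5, RefSeq: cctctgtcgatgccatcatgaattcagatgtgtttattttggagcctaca
SNHG12: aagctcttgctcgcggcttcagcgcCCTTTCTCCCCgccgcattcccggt
ZFAS1: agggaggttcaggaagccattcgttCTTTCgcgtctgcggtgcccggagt
SNHG5: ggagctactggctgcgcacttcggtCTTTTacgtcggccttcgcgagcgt
SNHG1: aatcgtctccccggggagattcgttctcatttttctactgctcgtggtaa
SNHG8: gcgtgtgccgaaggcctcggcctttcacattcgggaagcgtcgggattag
EPB41L4A-AS1: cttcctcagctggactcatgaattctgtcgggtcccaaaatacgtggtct
GAS5, GENCODE: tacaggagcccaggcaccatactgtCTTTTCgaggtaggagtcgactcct
SNHG15, GENCODE: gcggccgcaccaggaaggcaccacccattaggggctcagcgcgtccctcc
A pyrimidine run at the first base was present in 3 of the 7 host genes whose RefSeq window was examined (SNHG5, SNHG12 and ZFAS1). Of the 15590 RefSeq windows of tested genes, 4.97% had one. With the canonical starts of GENCODE 44 it was present in 3 of the 8 genes examined (GAS5, SNHG12 and ZFAS1), against 4.8% of 15025 windows. For GAS5 and SNHG5 the match depended on which annotation gave the first base.

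Windows from 250 bases before to 50 bases after the start were also searched on both strands for 3 short motifs. TTCNNNGAA, the palindrome bound by STAT factors, was in none of the 7 RefSeq or 8 GENCODE windows of the host genes, against 6.07% and 5.8% of the windows of tested genes. TGATGNAA, a core bound by ATF4 with its partners, was in none of them either, against 2.1% and 2%. CACGTG, the E-box bound by MYC and related factors, was in the GAS5 window of GENCODE 44 and in no RefSeq window examined, against 9.17% and 9.1%. None of the 3 motifs contains another, and a missing match says only that these letters are not in these windows.

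By GENCODE 44, GAS5 (ENSG00000234741) spans chr1:173858559-173868882 on the minus strand, and RefSeq lists 11 snoRNAs inside it. SNHG12 (ENSG00000197989) spans chr1:28578538-28583132 on the minus strand. SNHG1 (ENSG00000255717) spans chr11:62851978-62855953 on the minus strand and holds a series of box C/D snoRNAs from SNORD22 to SNORD30. SNHG8 (ENSG00000269893), the host of the H/ACA snoRNA SNORA24, spans chr4:118278703-118285316 on the plus strand. SNHG15 (ENSG00000232956), the host of SNORA9, spans chr7:44983019-44986961 on the minus strand. ZFAS1 (ENSG00000177410), the host of SNORD12, SNORD12B and SNORD12C, spans chr20:49278178-49299600 on the plus strand, head to head with the gene ZNFX1. SNHG6 (ENSG00000245910), the host of SNORD87, lies on chromosome 8. SNHG5 (ENSG00000203875) spans chr6:85650491-85678932 on the minus strand, and EPB41L4A-AS1 (ENSG00000224032), the host of SNORA13, spans chr5:112160526-112164818 on the plus strand.

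Whether a gene had counts went with its position relative to other genes. Of 18099 protein-coding genes that do not lie wholly inside another annotated gene, 69.8% had at least 10 counts in some library, whereas of 1843 that do, 2.55% had. The share was 2.01% among 1194 protein-coding genes that lie inside genes of the other strand only. For long noncoding genes the shares were 20% of 10157 and 0.272% of 6623. EPB41L4A-AS1 lies with 100% of its span inside EPB41L4A, which is transcribed from the other strand, and had 0 counts in each of the 8 libraries. SNHG5 lies with 99.3% of its span inside ENSG00000271793 and other genes, and its 1 count fell in AX-0085 replicate 1. Neither value says anything about the amount of these RNAs. For other genes named below at or near 0 counts, position is not given, so their counts do not show that the RNA was absent. All 20 snoRNA rows that lie inside host genes were at 0 in each library, so the snoRNAs themselves were not measured. Of the bases of the canonical exons, those inside other genes made up 96.7% for ZFAS1, 85.6% for SNHG8, 81.7% for SNHG6, 4.44% for SNHG15, 0.428% for SNHG12 and 0% for SNHG1 and GAS5. For ZFAS1, SNHG8 and SNHG6 only a small part of the canonical exons thus lies outside other genes.

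**Figure D1:**
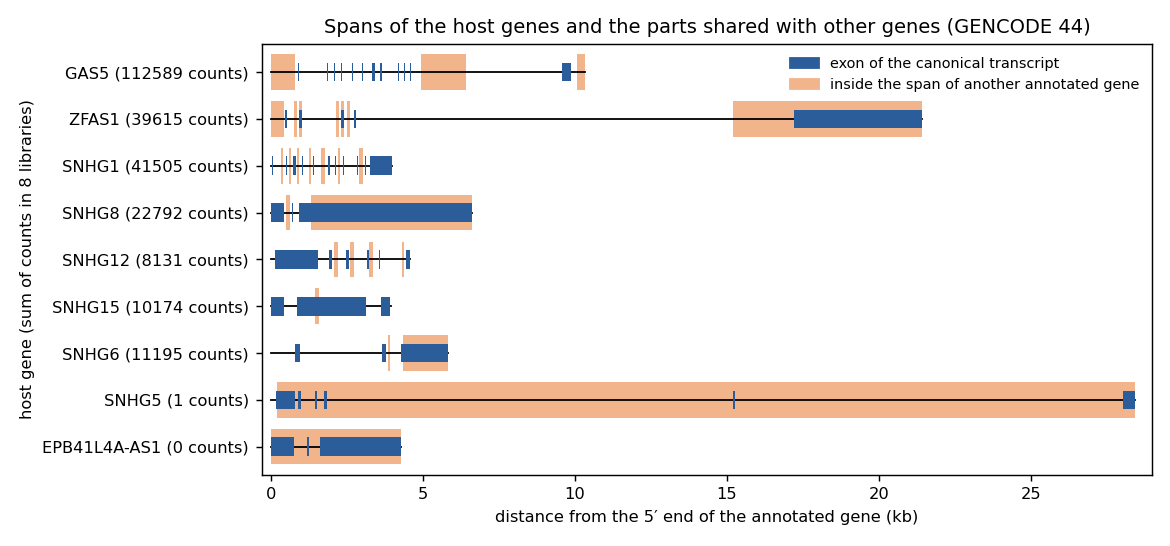
Exons of the canonical GENCODE 44 transcript (blue) and stretches inside other annotated genes (orange) along the 9 host genes, in kb from the 5′ end of each annotated gene, with the sum of counts over the 8 libraries beside each name. SNHG5 with 1 count and EPB41L4A-AS1 with 0 counts are the genes covered nearly or wholly by other genes, whereas the canonical exons of GAS5, with 112589 counts, lie outside them.

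The libraries held between 20672828 and 29978251 counts, and the floor of 3 counts corresponds to 0.0959 to 0.158 CPM (counts scaled to library size with the TMM factors of edgeR). Such limits cover counting error only. The 2 libraries of each group differed beyond counting noise (chi-square over genes divided by its degrees of freedom, 9.5 to 31.6). CD274, which encodes PD-L1 and was used to check the treatments, was at 5.98 ± 0.693 CPM with IFN-γ and 0.151 ± 0.0738 CPM without either agent (SD, n = 2). The untreated value rests on 3 and 5 counts, close to the floor. With both agents CD274 was at 0.449 ± 0.00133 CPM, a log2 fold change of -3.73 ± 0.28 SE against IFN-γ. With AX-0085 alone it was at 0.248 ± 0.182 CPM. The epithelial markers were tested in 7 of 7 cases, with a sum between 5760 and 9550 CPM per library. Of 9 leukocyte markers only ITGAM was tested and CD3E, CD3D, MS4A1 and CD68 were among those with no count, with a sum of 1.18 to 2.48 CPM. Of 6 fibroblast markers only COL1A1 was tested and COL1A2 had no count, and none of 5 endothelial markers was tested. A marker without counts is not thereby shown to be absent, as with the host genes that were not measured. In the 2 IFN-γ libraries the mitochondrial genes took 1.71% and 1.82% of the counts, below the 2.72% to 5.73% of the other libraries. In the same IFN-γ libraries the fibroblast sum was 3.06 to 4.7 CPM, against 9.66 to 11.2 CPM in untreated cells. Of the 7 epithelial markers 6 fell with IFN-γ, against 36% of all genes tested. The libraries with AX-0085 alone had the highest mitochondrial shares, 4.12% and 5.73%, and the lowest epithelial sums, 5760 to 6090 CPM against 8820 to 9550 CPM in untreated cells. The part of these differences in the changes of the host genes was not tested. In bulk RNA, a change in the number of cells of a type and a change in RNA per cell cannot be told apart.

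GAS5 stood at 117 and 104 CPM in the untreated libraries, 414 and 349 CPM with AX-0085, 538 and 506 CPM with both agents, and 1509 and 1213 CPM with IFN-γ. The groups did not overlap. How many of all genes tested were separated in this way was not counted, for GAS5 or for the host genes below. IFN-γ raised GAS5 12.3-fold against untreated cells (log2 fold change 3.62 ± 0.12 SE, adjusted p = 2.166e-11). AX-0085 alone raised it 3.44-fold (1.78 ± 0.11, adjusted p = 3.118e-08), and upon addition to IFN-γ-treated cells AX-0085 lowered it 2.61-fold (-1.38 ± 0.10, adjusted p = 9.445e-08). The same compound was thus followed by a higher level of GAS5 in cells without IFN-γ and a lower level in cells with it. The closest groups were those with AX-0085, where IFN-γ added 1.37-fold (0.45 ± 0.10, adjusted p = 4.686e-03). Without AX-0085 replicate 2 that difference did not pass (0.34, adjusted p = 0.06555). Every adjusted p in the text is from edgeR's quasi-likelihood test with Benjamini-Hochberg adjustment over the 15066 genes tested, and a gene is said to rise or fall where it is under 0.05. Exact permutation of 2 libraries against 2 gives a two-sided p of 0.333 at best, so single genes were tested in the model only.

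ZFAS1 and SNHG8 stood in the same order of groups as GAS5. ZFAS1, named as the antisense RNA at the start of ZNFX1, was at 50.4 and 46.5 CPM in untreated cells, 109 and 87.5 CPM with AX-0085, 152 and 160 CPM with both, and 622 and 475 CPM with IFN-γ. SNHG8 was at 22.6 and 24.3 CPM in untreated cells, 78.6 and 69.6 CPM with AX-0085, 137 and 140 CPM with both, and 252 and 221 CPM with IFN-γ. For both genes all 4 groups were separate. IFN-γ raised ZFAS1 11.3-fold (log2 3.50 ± 0.13) and SNHG8 10.1-fold (3.34 ± 0.085), AX-0085 alone raised ZFAS1 2.03-fold (1.02 ± 0.12) and SNHG8 3.16-fold (1.66 ± 0.084), and every step from one group to the next in this order passed the test, with adjusted p between 2.009e-08 and 8.916e-04 for ZFAS1 and between 6.466e-09 and 3.073e-06 for SNHG8. The 2-fold mark of ZFAS1 with AX-0085 alone was a narrow one, with a range of 0.85 to 1.17 on the log2 scale when single libraries were left out.

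SNHG1, the host of the SNORD22 group, followed the same order. In IFN-γ-treated cells it fell by a smaller fold after AX-0085 than GAS5, ZFAS1 and SNHG8 did. It was at 56.6 and 54.4 CPM in untreated cells, 97.2 and 89 CPM with AX-0085, 295 and 295 CPM with both, and 436 and 387 CPM with IFN-γ. IFN-γ raised it 7.4-fold (log2 2.89 ± 0.073, adjusted p = 2.898e-12), AX-0085 alone raised it 1.68-fold (0.75 ± 0.071), and AX-0085 lowered it 1.39-fold in IFN-γ-treated cells (-0.48 ± 0.066, adjusted p = 2.911e-05). With both agents it remained 5.31-fold above untreated cells (2.41 ± 0.072).

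SNHG12 and SNHG15 differed from these 4 genes in cells given AX-0085 alone. SNHG12, whose introns hold SNORA16A, SNORA44, SNORA61 and SNORD99, was at 8.67 and 7.13 CPM in untreated cells, 6.97 and 5.68 CPM with AX-0085, 22.5 and 19.4 CPM with both, and 155 and 133 CPM with IFN-γ. Its lowest groups lay next to each other, and the change with AX-0085 alone did not pass the test (log2 -0.33 ± 0.15, adjusted p = 0.08028), although it passed in some of the other settings, such as with the replicate number as a block (adjusted p = 0.01936). IFN-γ raised SNHG12 18.1-fold (4.18 ± 0.13), the largest IFN-γ change of the 7 genes, and 79 of the 15066 genes tested had a higher log2 fold change. AX-0085 lowered it 6.85-fold in IFN-γ-treated cells (-2.78 ± 0.11), also the largest change of the 7.

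SNHG15, whose RNA is known to be short-lived, was the gene that fell with AX-0085 alone. It was at 24.4 and 23.8 CPM in untreated cells, 18.1 and 14.6 CPM with AX-0085, 31.6 and 32 CPM with both, and 152 and 138 CPM with IFN-γ. The 4 groups were separate, with AX-0085 alone lowest. AX-0085 lowered SNHG15 1.48-fold against untreated cells (log2 -0.56 ± 0.099, adjusted p = 3.662e-04) and 4.55-fold against IFN-γ (-2.19 ± 0.091, adjusted p = 3.073e-10). IFN-γ raised it 6.01-fold (2.59 ± 0.093).

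SNHG6 had the smallest IFN-γ change of the 7 genes. It was at 39.8 and 39.8 CPM in untreated cells, 56.7 and 54.6 CPM with both, 60.3 and 61.2 CPM with IFN-γ, and 69.3 and 61.1 CPM with AX-0085. Untreated cells were lowest, and the values with IFN-γ and with AX-0085 overlapped. IFN-γ raised SNHG6 1.53-fold (log2 0.61 ± 0.076, adjusted p = 9.264e-06) and AX-0085 alone raised it 1.64-fold (0.71 ± 0.075, adjusted p = 4.49e-06). The difference between both agents and IFN-γ did not pass the test (-0.13 ± 0.075, adjusted p = 0.1514). In cells with AX-0085, IFN-γ was followed by a level 1.17-fold lower (-0.23 ± 0.074, adjusted p = 0.03013), a call that was lost with the DESeq2 test (adjusted p = 0.06572), with scaling by library size alone (0.05306), and without untreated replicate 1, AX-0085 replicate 1 or either replicate with both agents (0.05649 to 0.3054).

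**Figure D2:**
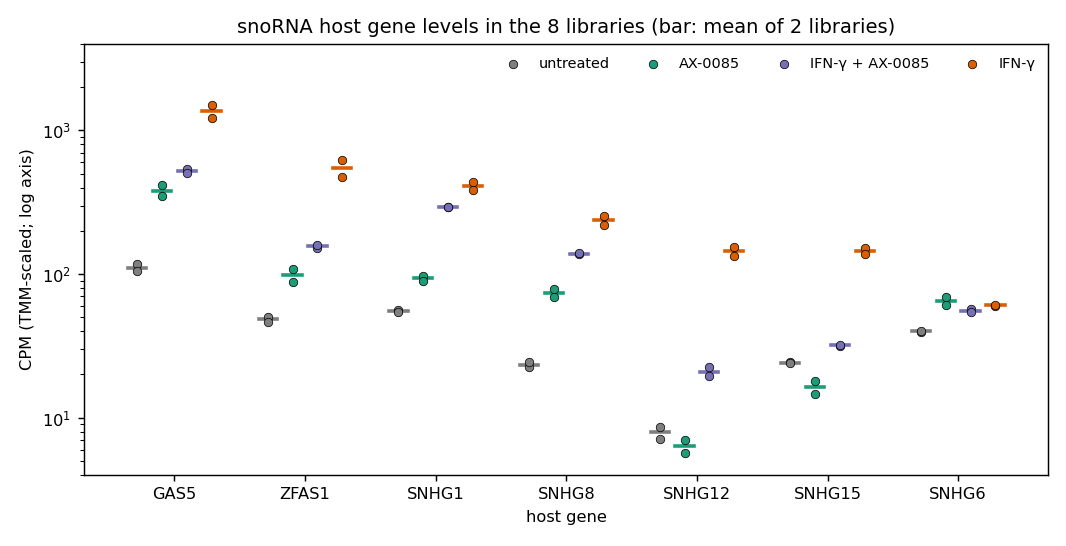
Level of the 7 tested host genes in each library (points, TMM-scaled CPM on a log axis) with the mean of 2 libraries (bars) for untreated, AX-0085, both agents and IFN-γ. IFN-γ stands highest in 6 genes, from 133 CPM upward in its libraries, and SNHG6 lies between 39.8 and 69.3 CPM in all groups.

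Levels were compared between genes only for GAS5, SNHG1, SNHG12 and SNHG15, whose canonical exons have at most 4.44% of their bases inside other genes. CPM were divided by the canonical exon bases that lie outside other genes. By this length, GAS5 was at 144 ± 11.9 CPM per kb in untreated cells and SNHG1 at 47.8 ± 1.36. SNHG15 was at 8.41 ± 0.138 and SNHG12 at 4.24 ± 0.585 (SD, n = 2). With IFN-γ, GAS5 was at 1772 ± 273 CPM per kb, SNHG1 at 354 ± 29.9, SNHG12 at 77.2 ± 8.66 and SNHG15 at 50.6 ± 3.43. By this length GAS5 stood above SNHG1, and SNHG1 above SNHG12 and SNHG15, in both groups. The length over which reads were counted is not known. GAS5 spans 10324 bases and SNHG1 3976, so the order of these genes can depend on the length used. The order of SNHG12 and SNHG15 with IFN-γ depends on the exon length used, since their CPM were 144 ± 16.1 and 145 ± 9.82. By the canonical exon bases outside other genes, SNHG12 with both agents was at 11.2 ± 1.17 CPM per kb and SNHG15 at 11.1 ± 0.0945. These values lay within the spread of their replicates. The summed CPM of the 9 rows, which adds what was counted and not the amounts of the RNAs, was 320 and 300 CPM in untreated cells, 793 and 676 CPM with AX-0085, 1233 and 1206 CPM with both, and 3187 and 2627 CPM with IFN-γ.

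The first comparison asked how IFN-γ changes the transcriptome. IFN-γ raised 7 of the 7 host genes tested and lowered none, and among all genes tested 32.1% rose and 36% fell. Over 2-fold higher were 6 of the 7, all but SNHG6, against 10.3% of all genes. The median log2 fold change of the 7 genes was 3.34, against -0.06 over all genes tested. The number of genes with a higher log2 fold change than the host gene was 79 for SNHG12, 111 for GAS5, 123 for ZFAS1, 130 for SNHG8, 177 for SNHG1, 209 for SNHG15 and 3080 for SNHG6, out of 15066. Thus 6 of the 7 lay close together near the top of the whole distribution and SNHG6 did not.

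The second comparison asked what AX-0085 does to cells that had received IFN-γ. AX-0085 lowered 6 of the 7 host genes and raised none, against 32.8% lowered and 33.7% raised among all genes. Over 2-fold lower were SNHG12, SNHG15, ZFAS1 and GAS5, 4 of 7, against 8.28% of all genes. The median of the 7 was -1.38 and that of all genes 0.03. This comparison and the first share the IFN-γ libraries, so that the fall of a gene after its rise is not independent of them. Against untreated cells, the cells with both agents had 7 of 7 host genes higher and none lower (28.1% and 28.8% of all genes). Over 2-fold higher were 5 and over 2-fold lower none (7.51% and 7.23% of all genes). The changes ran from SNHG15 at 1.32-fold (log2 0.40 ± 0.094, adjusted p = 2.747e-03) to SNHG8 at 5.93-fold (2.57 ± 0.084, adjusted p = 1.257e-10).

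In the third comparison, which shares the untreated libraries with the first, AX-0085 was given alone. It raised 5 of the 7 host genes (26.7% of all genes) and lowered 1, SNHG15 (26.6% of all genes). Over 2-fold higher were GAS5, SNHG8 and ZFAS1, 3 of 7, against 6.41% of all genes, and none was over 2-fold lower (5.62% of all genes). The median was 0.75, against 0.01 over all genes. The 7 genes thus fell into those that rose (GAS5, SNHG8, ZFAS1, SNHG1 and SNHG6) and the pair of SNHG12 and SNHG15, which lay at -0.33 and -0.56.

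**Figure D3:**
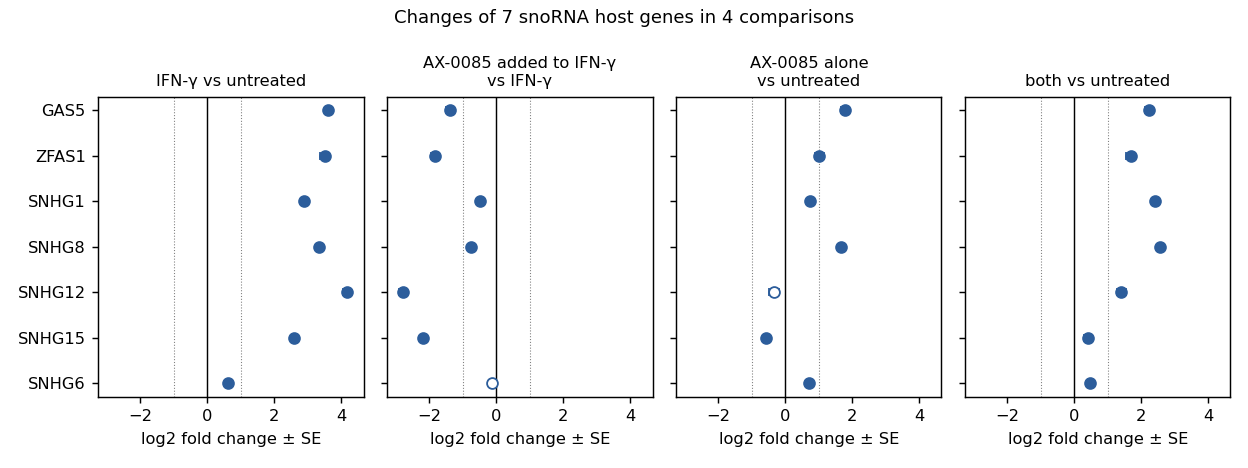
Log2 fold change ± SE (axis, from edgeR) of the 7 tested host genes in 4 comparisons, with filled points for an adjusted p under 0.05, open points otherwise and dotted lines at 2-fold. All 7 points lie right of 0 with IFN-γ, from 0.61 to 4.18, and all lie left of 0 with AX-0085 added to IFN-γ, where SNHG6 is open.

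Whether AX-0085 acted differently in cells with and without IFN-γ was tested as the interaction, the log2 effect of AX-0085 with IFN-γ minus that without it. The interaction was negative and past the test in 7 of the 7 host genes, against 23.6% negative and 26.7% positive among all genes, and over 2-fold in 6 of them (6.46% of all genes). It was -3.16 ± 0.15 for GAS5, -2.84 ± 0.17 for ZFAS1, -2.45 ± 0.19 for SNHG12, -2.43 ± 0.11 for SNHG8, -1.62 ± 0.13 for SNHG15, -1.23 ± 0.097 for SNHG1 and -0.84 ± 0.11 for SNHG6. The adjusted p lay between 4.729e-09 for SNHG8 and 2.717e-05 for SNHG6. The genes came to it by different routes. GAS5, ZFAS1, SNHG8 and SNHG1 rose with AX-0085 alone and fell when it was added to IFN-γ. SNHG15 fell in both settings (-0.56 and -2.19 on the log2 scale), and SNHG6 rose only in the first by the test.

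Seen from the side of IFN-γ, the same term gives how far the response to the cytokine was smaller under AX-0085. In cells with AX-0085, IFN-γ raised 6 of the 7 host genes (17.3% of all genes) and lowered SNHG6 (17.4% of all genes), with SNHG12 and SNHG1 over 2-fold (1.79% of all genes). The IFN-γ change was 18.1-fold without and 3.32-fold with AX-0085 for SNHG12, 12.3 and 1.37-fold for GAS5, 11.3 and 1.58-fold for ZFAS1, 10.1 and 1.87-fold for SNHG8, 7.4 and 3.17-fold for SNHG1, and 6.01 and 1.95-fold for SNHG15. On the log2 scale 57.6% of the IFN-γ change of SNHG1 was left under AX-0085, 41.5% of that of SNHG12, 37.2% of that of SNHG15, 27.1% of that of SNHG8, 18.9% of that of ZFAS1 and 12.5% of that of GAS5. When single libraries were left out, the log2 change with IFN-γ under AX-0085 ran from 0.34 to 0.58 for GAS5 and from 0.51 to 0.83 for ZFAS1, so that these 2 genes are not ranked against each other.

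**Figure D4:**
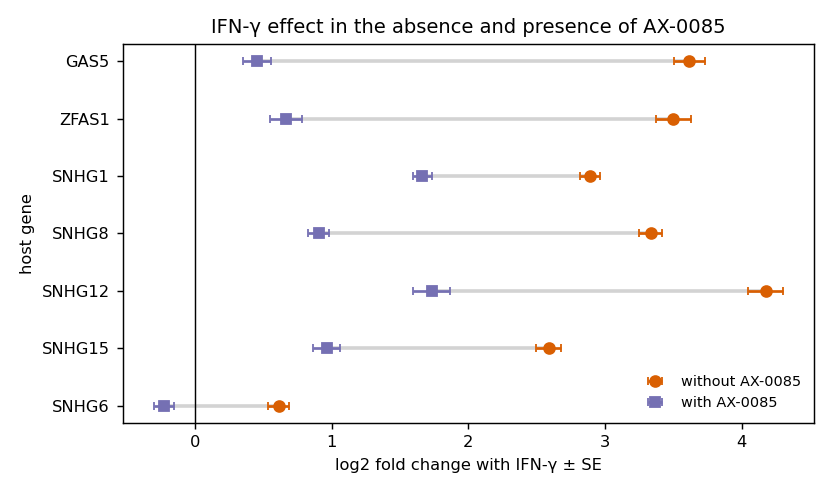
Log2 fold change ± SE with IFN-γ in cells without AX-0085 (circles) and with AX-0085 (squares) for the 7 tested host genes. Each square lies left of its circle, GAS5 moves from 3.62 to 0.45, and SNHG6 crosses 0 from 0.61 to -0.23.

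Among themselves the 7 genes differed in shape over the 8 libraries. Shape was compared by the root-mean-square difference of log2 CPM after each gene was centred on its own mean, as a description. From GAS5, SNHG8 differed by 0.239, ZFAS1 by 0.315, SNHG1 by 0.502, SNHG15 by 0.889, SNHG12 by 1 and SNHG6 by 1.09. Among 10306 other genes whose mean log2 CPM reached 2, 1 was closer to GAS5 than SNHG8 and 2 were closer than ZFAS1, whereas 443 were closer than SNHG15 and 1822 closer than SNHG6. SNHG12 and SNHG15 were 0.634 apart, and the farthest pair was SNHG12 and SNHG6 at 1.71. Outside the 9 genes chosen by name, the 5 genes most like GAS5 over the 8 libraries were SPX, TLR3, TRIB3, ERN1 and CCNB1IP1. SPX (0.197) encodes the peptide spexin, TLR3 (0.266) a receptor for double-stranded RNA, and TRIB3 (0.319) a pseudokinase induced by cell stress. ERN1 (0.335) encodes a sensor of unfolded protein in the endoplasmic reticulum, and CCNB1IP1 (0.368) a ubiquitin ligase. Whether any of these 5 genes hosts a snoRNA was not examined. With IFN-γ their log2 fold changes were 3.77, 4.15, 3.55, 2.81 and 2.65, and with AX-0085 alone 1.79, 2.16, 1.24, 1.37 and 1.25.

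The genes that overlap the host genes or start beside them gave another view of each locus. The canonical GENCODE start of GAS5 lies 93 bases from ZBTB37, which is transcribed the other way. With IFN-γ, where GAS5 rose 12.3-fold, ZBTB37 rose 1.38-fold (log2 0.47 ± 0.14, adjusted p = 0.01165). With AX-0085 alone the change of ZBTB37 did not pass the test (-0.17 ± 0.15, adjusted p = 0.3502). The 5′ edge of the SNHG1 gene lies 51 bases from SLC3A2, which encodes an amino acid transporter subunit. SLC3A2 rose 2.32-fold with IFN-γ (1.21 ± 0.088), where SNHG1 rose 7.4-fold, and in cells with AX-0085 it rose 2.21-fold with IFN-γ (1.15 ± 0.088). AX-0085 was followed by no change past the test in SLC3A2 either alone (-0.05 ± 0.087, adjusted p = 0.6402) or added to IFN-γ (-0.12 ± 0.087, adjusted p = 0.2517), nor was its interaction past the test (-0.06 ± 0.12, adjusted p = 0.6885), whereas SNHG1 changed in all of these.

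The 5′ edge of the ZFAS1 gene, which lies inside ZNFX1, is 121 bases from an annotated start of ZNFX1. This distance is not measured from the ZFAS1 start shown above. ZNFX1 encodes an RNA helicase of antiviral defence. ZNFX1 rose 2.22-fold with IFN-γ (log2 1.15 ± 0.065), fell 1.61-fold when AX-0085 was added (-0.69 ± 0.064) and rose 1.16-fold with AX-0085 alone (0.22 ± 0.066, adjusted p = 0.01267), so it moved in the directions of ZFAS1 with smaller folds. TRNAU1AP, which overlaps the end of SNHG12, fell 1.31-fold with IFN-γ (-0.39 ± 0.10) and fell in the other 4 two-group comparisons. EPB41L4A, which covers the unmeasured EPB41L4A-AS1, fell 3.46-fold with IFN-γ (-1.79 ± 0.28) and rose 2.12-fold with AX-0085 alone (1.08 ± 0.18). MCMDC2, which overlaps SNHG6, fell 2.12-fold with IFN-γ (-1.08 ± 0.35, adjusted p = 0.01455) at a level near 1 CPM. PRSS12, which overlaps the far end of SNHG8, had at most 12 counts in a library and was not tested.

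Other snoRNA hosts were counted to place the 7 genes, as a description, since genes and lists were chosen with earlier results of these data known. For this list and those that follow, the shares of all genes tested are the background. With IFN-γ 32.1% of all genes rose and 36% fell. With AX-0085 added to IFN-γ 33.7% rose and 32.8% fell, and with AX-0085 alone 26.7% rose and 26.6% fell. Of 19 further noncoding hosts 13 were tested. SNHG3, SNHG4, SNHG18, DANCR, SNHG20 and SNHG32 had at most 1 count in a library, which is no measure of their RNA. With IFN-γ 5 rose, 4 fell and 4 did not pass the test, with a median log2 fold change of 0.07. SNHG29 rose 3.44-fold (1.78 ± 0.069), SNHG17 3.32-fold (1.73 ± 0.062) and SNHG11 2.92-fold (1.55 ± 0.12), all below the 6.01-fold of SNHG15, while SNHG14 fell 2.84-fold (-1.51 ± 0.091). With AX-0085 added to IFN-γ, 4 rose and 4 fell (median 0.01), among them SNHG14 with a 3.2-fold rise (1.68 ± 0.091), SNHG19 with a 2.49-fold rise (1.31 ± 0.18) and SNHG17 with a 2.22-fold fall (-1.15 ± 0.061). With AX-0085 alone 6 rose and 3 fell (median 0.48). SNHG7 rose 3.82-fold (1.93 ± 0.09), SNHG29 rose 2.73-fold (1.45 ± 0.069) and SNHG21 fell 2.21-fold (-1.14 ± 0.31, adjusted p = 7.111e-03).

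Protein-coding hosts outside the ribosome were tested in 18 of 20 cases. EIF4A1 and PPAN had no count, which does not show that their RNA was absent. With IFN-γ 9 rose and 7 fell (median log2 fold change 0.13), with AX-0085 added to IFN-γ 4 rose and 11 fell (-0.28), and with AX-0085 alone 8 rose and 7 fell (-0.01). HSPA8, the constitutive heat shock chaperone, fell 7.45-fold with IFN-γ (-2.90 ± 0.074) and rose 2.38-fold when AX-0085 was added (1.25 ± 0.07). TAF1D, a subunit of the RNA polymerase I selectivity factor, rose 3.74-fold with IFN-γ (1.90 ± 0.062). DKC1, the pseudouridine synthase of H/ACA particles, rose 2.63-fold (1.39 ± 0.058) and fell 2.72-fold when AX-0085 was added (-1.44 ± 0.058). With AX-0085 alone the translation factors EEF2 and EIF4A2 rose 2.43-fold and 1.94-fold, and NOP56 fell 1.8-fold.

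The mRNAs with a TOP motif outside the ribosomal proteins, which include 4 of the protein-coding hosts, were tested in 20 of 22 cases. EEF1G and HNRNPA1 had at most 1 count in a library, which does not show that their RNA was absent. With AX-0085 alone 17 rose and 1 fell, with a median log2 fold change of 0.65 against 0.75 for the 7 host genes. EEF2 rose 2.43-fold (1.28 ± 0.076), PABPC1, the poly(A)-binding protein, rose 2.32-fold (1.21 ± 0.068), and EIF4B, with only 6 to 25 counts in a library, fell 2.31-fold (-1.21 ± 0.48, adjusted p = 0.04845). With IFN-γ 7 rose and 4 fell (median 0.12, against 3.34 for the host genes), TPT1 rising 1.75-fold (0.81 ± 0.074), PABPC1 rising 1.52-fold (0.60 ± 0.067) and EIF3E falling 1.69-fold (-0.75 ± 0.058). With AX-0085 added to IFN-γ 11 rose and 6 fell (median 0.27, against -1.38 for the host genes), EEF2 rising 2.33-fold (1.22 ± 0.076), EIF3E rising 1.98-fold (0.99 ± 0.058) and the sparsely counted EIF4B falling 2.6-fold (-1.38 ± 0.47, adjusted p = 0.02064).

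Of the factors of NMD, 21 of 22 were tested. With IFN-γ 15 rose and 1 fell (median log2 fold change 0.42), UPF3B, which links the exon junction complex to the decay machinery, rising 2.58-fold (1.37 ± 0.072), SMG9 2.21-fold (1.14 ± 0.084) and the kinase SMG1 1.95-fold (0.96 ± 0.085). With AX-0085 added to IFN-γ 2 rose and 14 fell (-0.40), UPF3B falling 2.1-fold (-1.07 ± 0.071), MAGOHB 2.06-fold (-1.04 ± 0.088) and RBM8A 1.93-fold (-0.94 ± 0.068), the last pair being parts of the exon junction complex. With AX-0085 alone 3 rose and 11 fell (-0.32), NBAS rising 1.67-fold (0.74 ± 0.059) and EIF4A3 falling 1.57-fold (-0.65 ± 0.065).

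The proteins that build snoRNA particles were all tested, 19 of 19. With IFN-γ 14 rose and 2 fell (median log2 fold change 0.33), DKC1 at 2.63-fold and NOP58, a core protein of box C/D particles, at 2.57-fold (1.36 ± 0.055) leading, while the assembly factor ZNHIT3 fell 2.26-fold (-1.18 ± 0.074). With AX-0085 added to IFN-γ 1 rose and 17 fell (-0.69), DKC1 falling 2.72-fold, NOP56 2.46-fold (-1.30 ± 0.064) and NOP58 2.43-fold (-1.28 ± 0.055). With AX-0085 alone 1 rose and 14 fell (-0.37), where 5 of the 7 host genes rose, with NOP56 falling 1.8-fold (-0.85 ± 0.064) and the helicases RUVBL1 and RUVBL2 falling 1.68-fold and 1.67-fold.

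**Figure D5:**
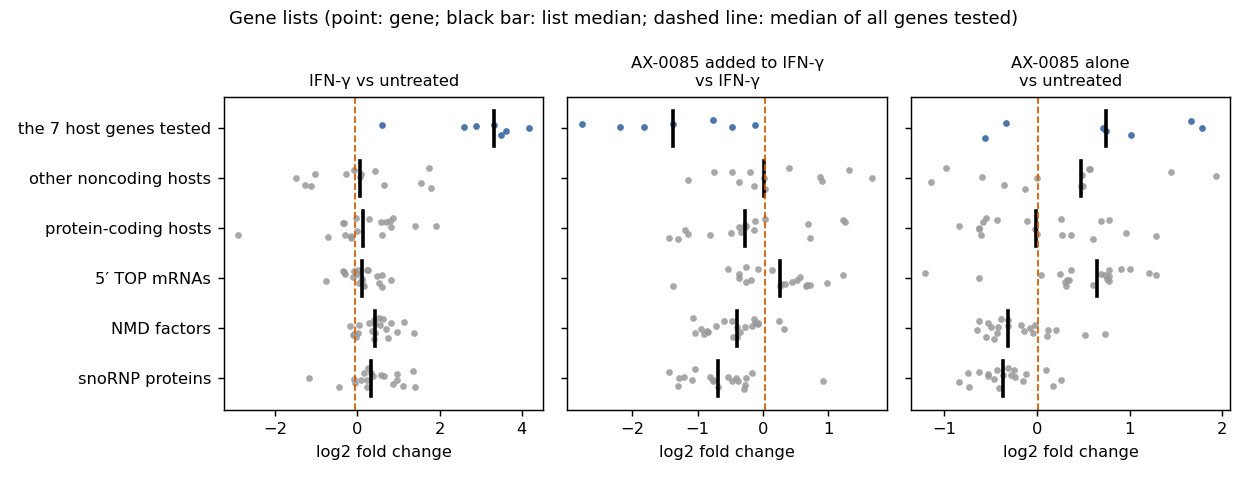
Log2 fold change of single genes (points, axis) in the 7 tested host genes and 5 further lists in 3 comparisons, with the median of each list (black bar) and of all genes tested (dashed line). The host genes have a median of 3.34 with IFN-γ, where the other lists lie between 0.07 and 0.42. Genes and lists were chosen with earlier results of these data known.

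The glucocorticoid receptor NR3C1 and its target genes were examined because GAS5 RNA can bind the receptor. Of 14 genes 12 were tested, and the shares of all genes given with the first list apply here too. With IFN-γ 6 rose and 3 fell (median log2 fold change 0.28), with AX-0085 added to IFN-γ 4 rose and 6 fell (-0.34), and with AX-0085 alone 5 rose and 5 fell (-0.15). TSC22D3, which encodes the protein GILZ, rose 5.42-fold with IFN-γ (2.44 ± 0.084) and 4.44-fold with AX-0085 alone (2.15 ± 0.083). The clock gene PER1 rose 4.78-fold with IFN-γ (2.26 ± 0.086) and fell 3.73-fold when AX-0085 was added (-1.90 ± 0.084), and ERRFI1 rose 2.66-fold with IFN-γ (1.41 ± 0.058). BIRC3 fell 4.06-fold with both agents against IFN-γ (-2.02 ± 0.10) and 2.26-fold with AX-0085 alone (-1.18 ± 0.10), while TFCP2L1 rose 3.82-fold when it was added (1.94 ± 0.12) and ANGPTL4 fell 2.02-fold with it alone (-1.01 ± 0.10). NR3C1 itself did not pass the test with IFN-γ (0.18 ± 0.075, adjusted p = 0.05074) and rose with AX-0085 alone (0.77 ± 0.075, adjusted p = 2.106e-06). These genes moved in both directions in each of the 3 comparisons.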

How the data were processed

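RNA of 8 A549 libraries, 2 per group, was sequenced as paired ends from stranded mRNA libraries. Per the labels and methods, the authors trimmed reads with Trim Galore 0.6.7, used STAR 2.7.9a for alignment to GRCh38 and featureCounts for counting, tested with DESeq2 and deposited the raw counts. The annotation release, strand setting and treatment of shared reads are not given in the sources used here. Positions are from GENCODE 44.

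Counts were filtered (filterByExpr), scaled (TMM) and tested with the quasi-likelihood test of edgeR 4.0.16 in R 4.3.3, with 1 model of the 4 groups, 4 residual degrees of freedom and no covariate, in 6 comparisons. Calls used an adjusted p under 0.05, and over 2-fold a log2 fold change over 1 as well, the thresholds of the study. The procedure was tested on simulated data. SE is the log2 fold change divided by the square root of F. The genes and lists were chosen with earlier results of these data known. Named were all 9 host genes, CD274, overlapping or adjacent protein-coding genes, the 5 genes most like GAS5, and in each list at most 3 tested genes with the largest change past the test in each of the first 3 comparisons. A few adjacent genes and markers are not reported here. Names chosen after seeing values were SNHG14 with IFN-γ, NR3C1 and the genes at or near 0 counts. Alternatives were DESeq2 1.42.0, its size factors, library size alone, other filters, only the groups compared, the replicate block and leaving out each library.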

Additional observations from a re-analysis of the deposited data

Results flagged for a closer look

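The effect of AX-0085 differed between cells with and without IFN-γ in each of the 7 host genes tested, by the interaction term of edgeR's quasi-likelihood test. The log2 effect with IFN-γ minus that without was -3.16 for GAS5, -2.84 for ZFAS1, -2.45 for SNHG12, -2.43 for SNHG8, -1.62 for SNHG15, -1.23 for SNHG1 and -0.839 for SNHG6, with adjusted p of at most 2.717e-05. Negative interactions past the test made up 23.6% of all genes tested. No group had enough libraries for a test of single outlying values.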

How the results depend on the processing

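Over all alternatives, 639 of the log2 fold changes of host genes kept their direction and side of the threshold, 7 lost the call, 5 gained it and none reversed. The 7 losses were SNHG6 (6 settings) and GAS5 (1 setting), both in the comparison of both agents with AX-0085 alone, and the 5 gains were SNHG12 with AX-0085 alone. The number of host genes that fell between both agents and AX-0085 alone was therefore 0 with DESeq2 and with library size alone instead of 1, and 0 to 1 when single libraries were left out. The number that fell with AX-0085 alone was 2 instead of 1 without a filter beyond 1 count and with the replicate block, and 1 to 2 when single libraries were left out (2 without untreated replicate 2 or AX-0085 replicate 1). Leaving out single libraries also gave 2 to 3 host genes over 2-fold higher with AX-0085 alone, and 5 to 6 that rose and 2 to 3 over 2-fold higher between both agents and AX-0085 alone.

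Deviations of same-numbered libraries correlated between -0.109 and 0.0873 over genes, so no strong shift shared by replicate number was seen. This does not show that the libraries were unpaired. With the block, 1537 genes were over 2-fold higher and 2561 lower with IFN-γ, against 1547 and 2590 without it. A crossed pairing of the untreated libraries, chosen after seeing the data, gave 1547 and 2583 with IFN-γ and 2 host genes that fell with AX-0085 alone. Requiring 10 counts in every library left 1716 genes over 2-fold lower with IFN-γ (2590 otherwise), 1568 higher with AX-0085 added to IFN-γ (2485), 520 higher with AX-0085 alone (966), 147 higher and 98 lower between both agents and AX-0085 (269 and 261), and 684 higher and 701 lower between both and untreated (1132 and 1090). DESeq2 gave 130 lower in place of 261 between both agents and AX-0085, and leaving out replicate 1 with both agents gave 170. Scaling by library size alone moved the median of all genes by -0.116 with IFN-γ, 0.122 with AX-0085 added to it and 0.117 in the interaction, and turned the direction of none of the 7 host genes. The interaction needs all groups and has no fit of only the groups compared. Where a group is left with 1 library, that library is assumed to vary like the others. The causes of these differences were not tested. The 7 host genes had at least 151 counts in every library, while SNHG5 and EPB41L4A-AS1 could not be measured at any depth seen here.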
